A study of Mus musculus with 30 samples.

Results

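The mesenchyme that lies against the olfactory epithelium was compared between embryonic day (E) 14.5 and E11.5. The 3 arrays of mesenchyme (MES) dissected next to the olfactory epithelium (OE) at E14.5 were set against the 3 arrays of MES dissected next to the olfactory placode (OPL) at E11.5, which makes 6 of the 30 arrays of the series. All genes that the array annotation gave a single symbol were read, 14807 in all, and the 799 olfactory and vomeronasal receptor genes among them were counted apart from the other 14008. Every embryo of both groups was wild type and came from F1 crosses of the C57Black6 and DBA strains. The nasal tissue was cut free by hand from vibratome sections, and each array carried RNA from its own pool of at least 4 embryos, with at least 15 embryos used per age. Whether pools shared litters was not stated, and a p-value here speaks only of the variation among these pools. RNA was accepted at an integrity number above 5, which leaves room for partly degraded RNA. The MES next to the vomeronasal organ (VNO) at E14.5 and the E12.5 MES, which is labelled as olfactory placode, served for comparison. So did the epithelial (EPI) fractions at E11.5 and E14.5. Each was on 3 arrays from the same strain cross and of the same genotype. The MES was divided into an OE and a VNO side only at E14.5.

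As background, the mesenchyme around the nasal cavity arises largely from cranial neural crest, with endothelium and muscle precursors from mesoderm. It first surrounds the placode as a loose, dividing tissue and later condenses into the cartilage of the nasal capsule and into membrane bone, while the remainder forms the connective tissue of the mucosa. Olfactory axons, their ensheathing glia and migrating GnRH neurons cross it on their way to the forebrain, and it exchanges retinoic acid, FGF, BMP, WNT and hedgehog signals with the epithelium.

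Values are RMA summaries, a background-corrected and normalised measure of probe brightness per gene on the log2 scale. Differences are E14.5 minus E11.5 on that scale, and a gene was called higher or lower where limma gave an adjusted p at or under 0.05 and the difference reached 0.9. Array pairs of the same age correlated at 0.984 to 0.990 and pairs of different ages at 0.955 to 0.964. The median over all genes shifted by -0.12. Mesenchymal markers were high at both ages. The PDGF receptor gene Pdgfra lay at 11.07, 11.01 and 11.06 at E11.5 and at 11.07, 11.13 and 11.08 at E14.5, and the paired-type homeobox gene Prrx1 lay at 11.08 to 11.10 and then 11.40 to 11.43. Neither gene passed the threshold.

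Markers of other tissues moved with age in this fraction, and these values stand beside every rise described here. Of 31 measured epithelial markers, 21 were called higher in the MES at E14.5 and 0 were called lower, and the mean of the list moved from between 6.39 and 6.47 per array to between 7.85 and 7.87. The study used Ehf, Fmo2 and Foxj1 as epithelial markers in a qPCR estimate of epithelium in the MES samples, which is not reported here. Ehf, an epithelial ETS factor, rose in the MES from 4.56 ± 0.06 to 7.33 ± 0.01 (SD, n = 3), against 8.32 ± 0.24 in the EPI at E14.5. In the other direction, the bone factor Sp7 and the cartilage gene Cnmd reached means of 8.15 and 9.95 in the EPI at E14.5, beside 9.15 and 10.10 in the MES, so that bone and cartilage transcripts were present in both dissected fractions. In bulk tissue, a change in the number of cells of a type and a change in RNA per cell cannot be told apart. The part of carried-over tissue in the array results was not tested here.

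From the placode MES of E11.5 to the MES next to the OE at E14.5, transcripts of bone, cartilage and fibrous matrix rose. Those of nucleated red cells, of forkhead and T-box patterning factors and of fetal growth regulators fell. Since only the E14.5 MES was divided by side, age and site of dissection cannot be told apart in these differences. Of the 14008 genes, 686 (4.9%) were called higher at E14.5 and 357 (2.55%) lower. In every called gene the 3 arrays of E14.5 lay beyond the 3 of E11.5, as they did in 9401 of all 14008 genes. Among these single-symbol genes the rises were the larger changes, with 124 of at least 2 on the log2 scale and 11 of at least 4. Of the falls, 20 reached 2 and 0 reached 4. Clusters with several symbols were not counted. After quantile normalisation, which removed the shift of the median, 792 genes were called higher and 214 lower, and the share of rises among the calls went from 65.8% to 78.7%. Rank Products, the test named in the study's methods, called 413 of the rises and 63 of the falls. Without the minimum difference of 0.9, 2535 genes were higher and 5061 lower. That count was made only on the deposited scale, with its median of -0.12, and not after quantile normalisation.

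**Figure D1:**
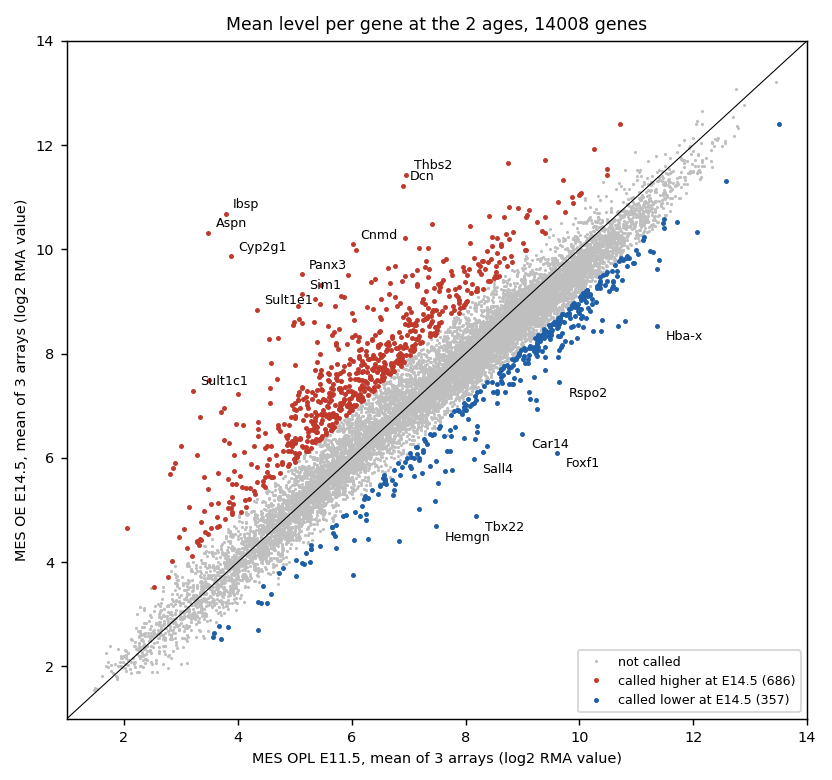
Mean log2 RMA level of each of 14008 genes in the MES at E11.5 (horizontal axis) and at E14.5 next to the OE (vertical axis), each the mean of 3 arrays, with the 686 genes called higher in red and the 357 called lower in blue. Ibsp and Aspn lie farthest above the diagonal, at differences of 6.89 and 6.84, and Foxf1 and Tbx22 farthest below it, at -3.51 and -3.30.

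Bone-forming transcripts rose, and they held the gene with the largest difference, Ibsp. Of 21 measured osteoblast genes, 12 (57.1%) were called higher and 1 lower, with a median difference of 1.47 beside -0.12 over all genes, and Rank Products called the same numbers. Members of this and the other lists were chosen with earlier results of these data known, so such shares describe and do not test. Ibsp, which encodes the mineral-binding bone sialoprotein of new bone matrix, read 3.73, 3.97 and 3.67 at E11.5 and 10.68, 10.76 and 10.61 at E14.5. Its level at E12.5 was still 3.85 ± 0.16, so the whole rise of 6.89 ± 0.10 (SE, adjusted p = 1.42e-05) fell after E12.5. Sp7, the zinc finger factor that osteoblasts require, read 6.64, 6.78 and 6.52 and later 9.19, 9.05 and 9.20. It rose by 2.5 ± 0.09 (SE, adjusted p = 5.92e-05), with no overlap between the ages. Panx3, a channel protein of osteoblasts and chondrocytes, went from between 5.09 and 5.14 to between 9.36 and 9.62, a rise of 4.40. Mmp13, a collagenase of osteoblasts and hypertrophic chondrocytes, went from between 3.31 and 3.65 to between 7.35 and 7.60, a rise of 4.00. Both were low and tight at E11.5 and high on every E14.5 array.

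Enzymes and matrix proteins of mineralisation followed. Alpl, the alkaline phosphatase that frees phosphate for mineral, rose by 2.84, from a range of 7.14 to 7.26 to one of 9.99 to 10.08. Smpd3, a sphingomyelinase needed for bone mineralisation, rose by 2.61 and Ifitm5, an osteoblast membrane protein, by 2.12. Phex, an endopeptidase of osteoblasts that guards phosphate balance, rose by 2.06 and Dmp1, a matrix phosphoprotein of osteocytes, by 1.39. The collagen gene Col1a1, the main protein of bone and of fibrous tissue, was already at 10.68 to 10.76 at E11.5 and rose by 1.69. The osteocyte genes Sost and Mepe moved by -0.13 and 0.08 and were not called. Msx2, a homeobox factor of osteoblast precursors, was the member called lower, going from 7.74, 7.80 and 7.61 to 6.10, 6.10 and 6.24. By E12.5 the mean of 0 of the 12 rising genes had passed the midpoint of the change, as against 263 of all 686 rises (38.3%), and 29 of all 357 falls (8.12%). Of 13 measured osteoclast genes, 3 were called higher, namely Mmp9 (by 2.94), the proton pump subunit gene Atp6v0d2 (by 1.19) and the collagen-cleaving protease gene Ctsk (by 1.03), while the acid phosphatase gene Acp5 moved by -0.32 and was not called. Rank Products kept only Mmp9.

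Since Ibsp and Mmp13 stayed low until E12.5 and then rose together, the stretch around each annotated start site is shown, mostly upstream of it (RefSeq, build GRCm38.p6, forward strand). Ibsp lies at chr5:104299037-104299336 and Mmp13 at chr9:7272264-7272563. Capitals mark matches, on either strand, to the RUNX core TGTGGT (reverse ACCACA), the CCAAT box (reverse ATTGG) and the TATA element TATAAA (reverse TTTATA), which do not overlap here.
Ibsp: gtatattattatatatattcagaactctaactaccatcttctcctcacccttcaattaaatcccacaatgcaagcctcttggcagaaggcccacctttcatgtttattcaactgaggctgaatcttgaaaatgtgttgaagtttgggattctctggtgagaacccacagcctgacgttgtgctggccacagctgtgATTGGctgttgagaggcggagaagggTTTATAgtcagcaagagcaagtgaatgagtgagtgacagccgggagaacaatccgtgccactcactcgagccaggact
Mmp13: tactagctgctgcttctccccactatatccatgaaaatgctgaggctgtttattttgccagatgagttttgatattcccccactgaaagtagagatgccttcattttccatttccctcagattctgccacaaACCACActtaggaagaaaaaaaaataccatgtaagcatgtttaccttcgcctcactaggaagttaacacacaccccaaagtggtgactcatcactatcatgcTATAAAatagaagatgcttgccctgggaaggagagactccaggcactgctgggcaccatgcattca
The Ibsp window holds a reversed CCAAT box that begins 54 bases before the start and a reversed TATA element that begins 28 bases before it. The Mmp13 window holds a reversed RUNX core that begins 118 bases before the start and a TATA element that begins 16 bases before it. Of the 12 osteoblast genes called higher, 8 had a window in the table, 10 windows in all. TGTGGT was found in 2 of these windows (Dmp1 and Mmp13) and in 16.8% of all 32851 promoter windows cut in the same way, CCAAT in 3 against 37.4%, and TATAAA in 3 (Alpl, Ibsp and Mmp13) against 13.6%. These are matches of letters, not measured sites.

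Cartilage genes were more often called higher than lower. Of 24 measured cartilage genes, 14 were called higher and 1 lower, with a median difference of 1.17, and the E12.5 mean of 11 of the 14 lay past the midpoint of the change, as against 38.3% of all rises. Cnmd, which encodes the chondrocyte glycoprotein chondromodulin, read 6.15, 5.93 and 5.97 at E11.5, averaged 9.54 at E12.5 and read 10.07, 10.14 and 10.11 at E14.5. The difference was 4.09 ± 0.07 (SE, adjusted p = 2.16e-05). Acan, the aggrecan core protein that gives cartilage its water-holding proteoglycan, read 5.48, 5.55 and 5.35, then 9.32, 9.39 and 9.24. That rise of 3.86 left the groups far apart, with a mean of 8.07 at E12.5. The matrilins Matn1, Matn4 and Matn3, adaptor proteins of cartilage matrix, rose by 3.58, 3.20 and 1.87. Matn1 was the late member, at 5.84 at E12.5. Papss2, which makes the sulphate donor for cartilage proteoglycans, rose by 2.46, and the link protein gene Hapln1 rose by 2.13.

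The transcription factors of chondrogenesis did not share this course. Sox9, the factor that starts chondrogenesis and holds the chondrocyte state, was high at E11.5, at 10.59, 10.64 and 10.54, and lower at E14.5, at 9.48, 9.31 and 9.39. It fell by 1.19 on the log2 scale (SE 0.07, adjusted p = 0.000191), and Rank Products did not call it. Its partner Sox6 rose from between 8.43 and 8.66 to between 9.66 and 9.71, also without a call by Rank Products, whereas Sox5 moved by -0.70 and missed the threshold. Col2a1, the collagen of cartilage that Sox9 is known to drive, was at 10.29 to 10.34 at E11.5 and 10.60 to 10.63 at E14.5, a difference of 0.30 that was not called. The minor fibrillar collagens of cartilage, Col11a1 and Col11a2, and the associated Col9a2 and Col9a3 were called higher. Col10a1, the collagen of hypertrophic cartilage, moved by 0.46 and was not called.

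**Figure D2:**
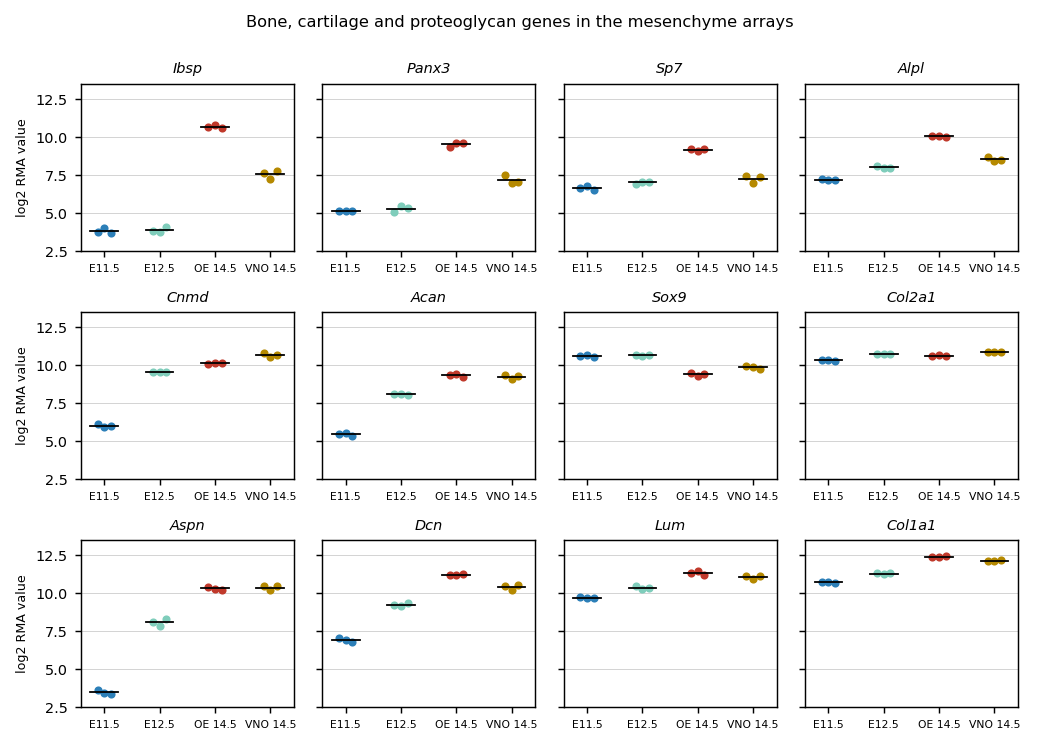
Log2 RMA level of 12 bone, cartilage and proteoglycan genes on each MES array, with 3 points per group and a bar at the mean. The groups are the placode MES at E11.5 and E12.5 and the OE and VNO sides at E14.5. The bone genes Ibsp and Panx3 are near their E11.5 level at E12.5 (3.85 and 5.28), the cartilage genes Cnmd and Acan are already at 9.54 and 8.07, and Sox9 goes down.

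The small leucine-rich proteoglycans, which bind collagen and space its fibrils, rose in most members. Of 14 measured, 10 were called higher and 0 lower, and the median difference was 1.32. Aspn, the asporin gene of perichondrium, periosteum and tendon, was near the lowest values of the array at E11.5, with 3.64, 3.43 and 3.37, and reached 10.39, 10.31 and 10.24 at E14.5. It had come to 8.08 by E12.5, and the full difference was 6.84 ± 0.09 (SE, adjusted p = 1.42e-05). Dcn, the decorin gene of fibrous connective tissue, rose by 4.32, from a range of 6.76 to 7.02 to one of 11.21 to 11.24. Ogn (osteoglycin) rose by 3.08 and Lum (lumican) by 1.61. Chad, the chondroadherin gene of cartilage, rose by 1.85. Omd (osteomodulin) rose by 1.81 with a wide spread, at 4.42, 3.20 and 4.18 and then 5.74, 6.27 and 5.22, and its adjusted p was 0.0169. Kera, Podnl1, Optc and Nyx were not called.

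Of 39 measured collagens, 14 were called higher and 0 lower, with a median of 0.41. The rises were led by collagens that sit on fibril surfaces and by the microfibrillar type VI. Col14a1 went from 6.78, 6.88 and 6.65 to 9.65, 9.73 and 9.67 and Col12a1 rose by 2.30. Col6a1 and Col6a3 rose by 2.16 and 2.06, and Col8a1, a short-chain collagen, by 1.86. The basement membrane genes Col4a1 and Col4a2 moved by -0.14 and -0.25 and were not called, and Col3a1 was abundant throughout, at 11.47 to 11.52 and 11.79 to 11.85.

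Matricellular proteins, which modulate how cells attach to matrix, gave 14 rises and 2 falls among 32 measured genes, with a median of 0.40. Thbs2, a thrombospondin of connective tissue fibroblasts, read 6.97, 6.93 and 6.98 and later 11.44, 11.43 and 11.41. Its rise of 4.47 ± 0.05 (SE, adjusted p = 9.02e-06) was measured with little spread between arrays. The mineralisation inhibitor gene Mgp rose by 3.59, the periostin gene Postn by 2.92, the dermatopontin gene Dpt by 2.59 and Tnc, of the adhesion-modulating tenascins, by 2.23. The TGF-beta-induced adhesion gene Tgfbi was among those called lower, going from between 10.38 and 10.42 to between 8.58 and 8.72. Smoc1, a matrix antagonist of BMP signalling, fell by 0.96 and lost its call after quantile normalisation. Thbs1 and Vcan, the latter the large proteoglycan of loose embryonic mesenchyme, moved by -0.48 and -0.47 and were not called.

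Other matrix systems changed in fewer members. Eln, the elastin gene, rose by 2.69, from a range of 7.28 to 7.40 to one of 9.91 to 10.09, and was with Ltbp3 and Efemp1 among 3 of 20 elastic fibre genes called higher. Emilin2 fell by 1.40 and was the member of that list called lower. Of 40 matrix proteases and their inhibitors, 6 (15%) were called higher and 1 (2.5%) lower, beside 4.9% and 2.55% over all genes. After Mmp13 and Mmp9 the larger rises were of the metalloproteases Adamts12 and Adam12, by 1.74 and 1.52. Hyaluronan genes went both ways. The receptor gene Cd44 rose by 2.02, and the synthase gene Has2 moved from between 10.08 and 10.16 to between 9.06 and 9.30, a fall of 0.94 that was not called after quantile normalisation. In the tendon list of 7, Tnmd rose by 2.12 and Egr1 by 1.38, while the tendon progenitor factor Scx moved by -0.43 and was not called.

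Transcription factors that pattern the early facial mesenchyme were more often called lower than higher. Of 55 measured patterning factors, 12 were called lower and 4 higher, with a median of -0.21, and after quantile normalisation 8 of the falls were called. Tbx22, a T-box factor of the palate and nasal mesenchyme whose mutation in humans gives cleft palate, read 8.23, 8.08 and 8.24 at E11.5 and 4.91, 4.86 and 4.88 at E14.5. It fell by 3.30 on the log2 scale (SE 0.06, adjusted p = 2.16e-05) and was still at 8.11 at E12.5. Tfap2a, a neural crest and facial factor, went from 9.47, 9.38 and 9.33 to 7.68, 7.67 and 7.69. Msx1, a homeobox factor of dividing facial mesenchyme, went from 11.43, 11.41 and 11.34 to 9.76, 9.85 and 9.77. Tfap2a and Msx1 were lower on every E14.5 array and intermediate at E12.5, at 8.46 and 10.65. The T-box genes Tbx3 and Tbx2, the orphan nuclear receptor gene Nr2f1 and the homeobox gene Six2 were called lower too, with differences of -1.46, -1.43, -1.42 and -1.27. Twist1, a bHLH factor of crest mesenchyme, and Pax9, a paired box factor of palate and teeth, gave differences of -0.96 and -0.93, and these calls were lost after quantile normalisation. The aristaless-type gene Alx1 moved by -0.79, from a range of 11.87 to 11.89, and missed the threshold.

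Rising factors were fewer. Sim1, a bHLH-PAS factor best known from the hypothalamus, went from 4.88, 5.44 and 5.04 to 9.12, 9.14 and 9.15. Its rise of 4.02 ± 0.15 (SE, adjusted p = 6.75e-05) put it among the 15 largest, and it stood at 8.19 by E12.5. The zinc finger genes Osr1 and Osr2, factors of connective tissue and palate mesenchyme, rose by 2.25 and 2.16. Meox2, a homeobox factor of mesodermal precursors, rose by 1.18, and Rank Products did not call it.

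Of 20 measured forkhead genes, 9 were called lower and 2 higher, and the median was -0.66. Foxf1, a hedgehog-responsive mesenchymal factor, gave the largest fall among genes with a single symbol. It went from 9.71, 9.65 and 9.45 to 6.43, 5.56 and 6.29. The difference was -3.51 ± 0.24 (SE, adjusted p = 0.000351), and its E12.5 mean of 9.01 was nearer to that of E11.5. Foxc2, a factor of skeletal and vascular mesenchyme, went from 9.18, 9.31 and 9.25 to 7.06, 7.26 and 6.97. Foxf2, the palate relative of Foxf1, fell by 1.59 and Foxd2 by 1.53. Foxp4 and Foxd1 were called lower, with differences of -1.34 and -1.31, though not by Rank Products. The forkhead genes called higher were Foxa1 and Foxj1, factors of endoderm and airway epithelium and of ciliated cells, whose EPI means at E14.5 were 8.18 and 7.93, above the MES arrays at 7.38 to 7.47 and 6.75 to 7.26.

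**Figure D3:**
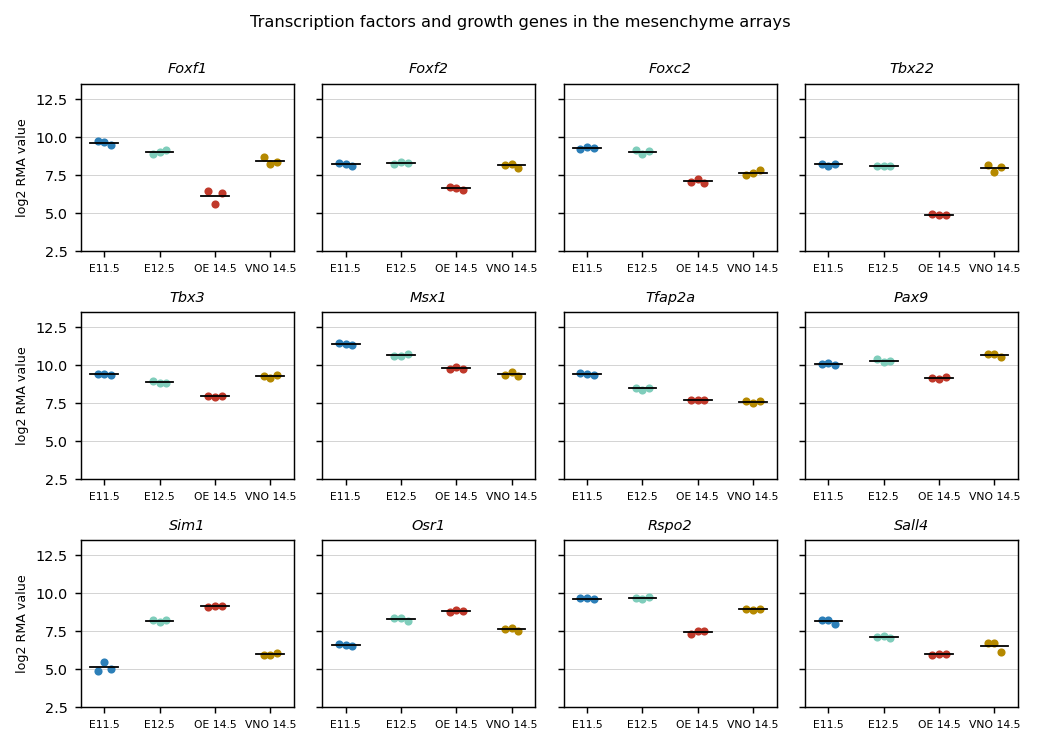
Log2 RMA level of 12 transcription factors and growth genes on each MES array, with 3 points per group and a bar at the mean. The groups are the placode MES at E11.5 and E12.5 and the OE and VNO sides at E14.5. Foxf1, Foxf2, Tbx22 and Tbx3 are low only next to the OE at E14.5 among the groups drawn, with VNO means of 8.41, 8.12, 7.95 and 9.28, while Sim1 is high next to the OE.

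Of 8 fetal growth genes, 5 were called lower and 0 higher, with a median of -1.06. Sall4, a zinc finger factor of embryonic progenitors, went from 8.24, 8.22 and 7.97 to 5.95, 6.02 and 5.97. Igf2bp1, an RNA-binding protein that sustains fetal growth, fell by 1.74 from a range of 11.34 to 11.41, and its relative Igf2bp3 fell by 1.32. Mycn fell by 1.09 and the chromatin protein gene Hmga2 by 1.04, the latter without a call after quantile normalisation. Lin28a moved by -0.68 and was not called.

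Of 34 cell cycle genes, 13 were called lower and 0 higher, with a median of -0.84. All of the differences were negative, but 4 were called after quantile normalisation and 0 by Rank Products. The mitotic kinesin gene Kif2c went from 10.62, 10.52 and 10.56 to 9.20, 9.30 and 9.29. Mcm7, of the replicative helicase, and Bub1, of the spindle checkpoint, were called lower, with differences of -1.29 and -1.27. The proliferation markers Mki67 and Top2a moved by -0.82 and -0.87 and missed the threshold. Among 11 inhibitors of the cycle, Cdkn2c and Cdkn1a rose by 1.27 and 1.06.

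Among signalling genes, secreted modulators of WNT moved in both directions. In the WNT list of 54 genes, 5 (9.26%) were called higher and 5 (9.26%) lower, beside 4.9% and 2.55% over all genes. The median was -0.14. Rspo2, a secreted amplifier of WNT signalling, went from 9.70, 9.66 and 9.59 to 7.33, 7.48 and 7.54, a difference of -2.2 (SE 0.07, adjusted p = 5.34e-05). The secreted antagonist Frzb fell by 1.59. The related antagonists Sfrp4 and Sfrp2 rose by 2.23 and 1.68, the latter from a range of 10.18 to 10.30 to one of 11.86 to 11.97. Wnt2 was the ligand called higher, by 1.82, and Wnt8b and Wnt9b were called lower. No Frizzled gene was called. The target genes Lef1 and Axin2 moved by -0.70 and -0.74 and were not called.

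In the BMP and TGF-beta list of 39, 4 (10.3%) were called higher and 3 (7.69%) lower, beside 4.9% and 2.55% over all genes. Gdf10 and Bmp5, ligands of this family, rose by 1.74 and 1.49, with Bmp5 going from between 8.16 and 8.27 to between 9.67 and 9.77. The antagonist Chrdl1 rose by 1.35 and Bmp2 by 1.19, while Id3, Acvr2b and Nbl1 were the members called lower and none of these calls remained after quantile normalisation. In the FGF list of 31, 3 (9.68%) were called higher and 4 (12.9%) lower. Fgf7, a mesenchymal ligand for an epithelial FGF receptor, rose by 2.83, from 5.56, 5.11 and 5.51 to 8.32, 8.15 and 8.21. Flrt2, a membrane protein that binds FGF receptors and guidance receptors, was among the brightest genes at 12.06 to 12.09 and went to 10.29 to 10.40. Fgf17 and the FGF response gene Etv4 fell by 1.19 and 1.00, whereas the response gene Dusp6 fell by 0.98 and was not called after quantile normalisation. Of 9 hedgehog genes, 1 (11.1%) was called higher and 0 lower, beside 4.9% and 2.55% over all genes. The gene called was Hhip, a decoy that binds the ligand, with a rise of 1.46. Gli1 and Ptch1, read-outs of this pathway, moved by -0.37 and -0.55.

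Retinoic acid genes went in both directions, with 2 called higher and 4 lower among 12. Stra6, the receptor through which cells take up retinol, went from 9.95, 10.04 and 9.89 to 8.29, 8.26 and 8.32. Crabp1, a cytosolic retinoic acid binder of crest mesenchyme, fell by 1.27 from a range of 12.52 to 12.63, and the degrading enzyme gene Cyp26b1 fell by 0.93, the latter without a call after quantile normalisation. Of the synthesising enzymes, Aldh1a1 rose by 2.13 and Aldh1a3 by 0.96, and Aldh1a2 moved by -0.08. Aldh1a1 stood higher in the EPI at E14.5, at 8.26, than on the MES arrays at 7.47 to 7.71. Of 51 axon guidance genes, 4 (7.84%) were called higher and 3 (5.88%) lower, not far from the 4.9% and 2.55% over all genes. The repellent ligand genes Sema3d and Sema3c rose by 2.16 and 1.61 and their receptor gene Nrp1 rose by 1.59, from 8.24 to 8.47 per array up to at least 9.90. Epha7, Epha4 and Efna2, of the contact-dependent Eph and ephrin system, were called lower, with differences of -1.55, -1.41 and -1.32.

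Of 22 red cell genes, 12 were called lower and 0 higher, with a median of -1.11. Hba-x, the embryonic zeta globin gene of primitive red cells, went from 11.40, 11.35 and 11.33 to 8.65, 8.32 and 8.62. It fell by 2.83 on the log2 scale (SE 0.10, adjusted p = 6.42e-05) and was at 10.16 at E12.5. Hemgn, Rhag, Slc4a1 and Kel, genes of erythroid nuclei and red cell membranes, were called lower, with differences of -2.79, -2.44, -2.31 and -2.16. The EPI means of all these genes were lower at E14.5 too, with Hba-x at 11.18 and then 8.76.

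Macrophage genes lay higher at E14.5 in 23 of 23 members, with a median of 0.72, and 5 of them were called. F13a1, the coagulation factor subunit of resident macrophages, rose by 1.92, from a range of 6.30 to 6.39 to one of 8.22 to 8.32, and the mannose receptor gene Mrc1 rose by 1.44. The receptor gene Csf1r moved by 0.80 and was not called. Of 9 mast cell genes, 3 were called higher. Cpa3, the carboxypeptidase of mast cell granules, read 4.62, 4.43 and 4.60 and later 8.20, 8.46 and 8.19. Its rise of 3.73 was number 15 in size among genes with a single symbol. Hdc, which makes histamine, rose by 1.99 and the chymase gene Cma1 by 1.31.

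Endothelial genes were mostly level, with 2 of 22 (9.09%) called higher, beside 4.9% over all genes. These were Erg, also a factor of cartilage precursors, and Lyve1, of lymphatic vessels and macrophages, which rose by 1.39 and 1.35. The pan-endothelial genes Pecam1 and Cdh5 moved by 0.35 and 0.24 and were not called. Among 16 smooth muscle and pericyte genes, Acta2 rose by 2.45, from 7.19, 6.91 and 7.09 to 9.42, 9.54 and 9.58, and Rgs5 by 1.83 and Cspg4 by 1.43, whereas Pdgfrb moved by -0.14. Of 20 skeletal muscle genes, 4 were called higher, with Tnnc1, a slow troponin, leading at 1.83 and the myogenic factor Myog at 1.13. Of 13 genes of ensheathing glia and neural crest, 4 rose, led by Fabp7 at 1.70 and Npy at 1.69, and 1 was called lower, the WNT antagonist Frzb at -1.59. Sox10, the factor shared by crest and its glia, moved by -0.18 and stood highest at E12.5, at 8.10.

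The remaining large changes had no group in common. Fstl5, a secreted follistatin-like protein, read 6.23, 6.02 and 5.96 and then 9.96, 9.95 and 10.02, and Chodl, a C-type lectin of the chondrolectin type, rose by 3.87. Fstl5 was already at 8.77 in the EPI at E11.5. Among the falls, the carbonic anhydrase gene Car14 went from 8.98, 9.03 and 8.95 to 6.58, 6.30 and 6.49. The serotonin receptor subunit gene Htr3b differed by -2.28 and the fibrocystin-like gene Pkhd1l1 by -2.27. Lix1 was bright at E11.5, at 10.75 to 10.85, and fell to 8.57 to 8.68. The transcriptional coactivator gene Cited1 and the oestrogen-responsive gene Greb1 differed by -2.18 and -2.16. In Car14, Lix1, Greb1 and Pkhd1l1 the EPI means were lower at E14.5 as well, at 6.46, 8.11, 5.65 and 3.43, whereas Cited1 stood at 6.58 and 6.75 in the EPI.

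Of 30 adhesion genes, 7 were called higher and 1 lower. Cntn4, a contactin of axons, rose by 3.59, from 4.91, 4.55 and 4.69 to 8.24, 8.47 and 8.19, and the cadherin gene Cdh6 was the member called lower, going from between 9.79 and 9.94 to between 8.47 and 8.53. Of 22 integrin and laminin genes, 1 (4.55%) was called each way, near the 4.9% and 2.55% over all genes. Itgbl1 was called higher, by 2.16, and Lama1, of basement membrane, was called lower, from 8.79 to 8.90 down to 7.41 to 7.43. Among 29 chemokine and PDGF genes, 2 (6.9%) were called each way, also not far from the shares over all genes. The receptor genes Met and Cxcr4 rose by 1.56 and 1.41. The chemokine genes Cxcl13 and Cxcl12 gave differences of -0.99 and -0.91, the latter not called after quantile normalisation. Of 19 IGF and imprinted genes, 1 (5.26%) was called higher and 0 lower, near the 4.9% and 2.55% over all genes. The gene called was Dlk1, with a rise of 1.11, while the abundant Igf2 and H19 moved by 0.36 and 0.33. Of 10 adipocyte genes, 1 (10%) was called higher, beside 4.9% over all genes. The 7 reference genes had a median of -0.05 with 0 calls by limma.

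**Figure D4:**
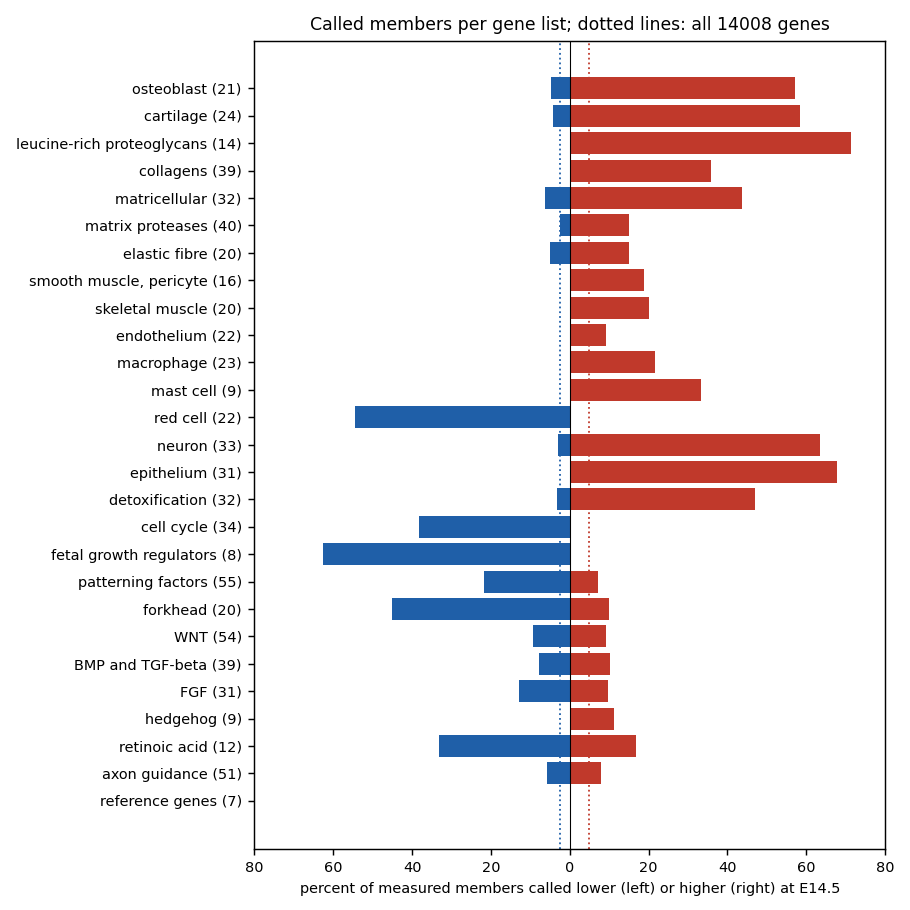
Percent of the measured members of each gene list that were called higher (red, right) or lower (blue, left) in the MES at E14.5 against E11.5, with the number measured in brackets and dotted lines at the shares over all 14008 genes (4.9% and 2.55%). Osteoblast, proteoglycan, neuron and epithelium lists reach far to the right, and the red cell and fetal growth lists reach far to the left. List members were chosen with earlier results of these data known, so the bars are a description.

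Neuronal, epithelial and detoxification transcripts also rose in the MES fraction and are given beside the EPI. Of 33 neuronal genes, 21 were called higher and 1 lower, with a median of 1.17. Ebf2, a factor of differentiating olfactory neurons that is also known in mesenchymal precursors, read 6.96, 6.83 and 6.88 and then 9.45, 9.42 and 9.32, above its EPI mean of 8.66 at E14.5. Omp, the marker of mature olfactory neurons, rose by 1.65, to a mean below that of the EPI at 8.09. Stmn2, a growth-cone protein of axons, went from between 7.58 and 7.85 to between 9.51 and 9.68. Gnrh1 was at 5.79, 5.83 and 6.03 at E11.5, averaged 7.28 at E12.5 and was at 5.65, 6.22 and 5.24 at E14.5, and it was not called. Isl2, of motor and sensory neurons, was the neuronal gene called lower, by 1.21 on the log2 scale.

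Of the 31 epithelial genes with their median of 1.19, Epcam, an adhesion protein of all epithelia, was already at 8.60 to 8.65 in the MES at E11.5 and went to 10.03 to 10.18, beside EPI means of 10.81 and 11.08. Elf5, an ETS factor of glandular epithelium, rose by 3.29, from 5.77, 5.96 and 5.73 to 9.0, 9.07 and 9.26. Bpifa1 and Reg3g, secreted defence proteins of airway epithelium, rose by 3.17 and 3.44 and stayed below their EPI means of 9.22 and 8.16. The mean over this list was 6.54 to 6.63 on the EPI arrays at E11.5 and 8.22 to 8.64 at E14.5, above the MES arrays at both ages. The median difference of MES from EPI over its members was 0.26 at E11.5 and -0.53 at E14.5, so the mean and the median differed in sign at the earlier age.

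Of 32 genes of detoxification, 15 were called higher and 1 lower, with a median of 0.78. Cyp2g1, a cytochrome P450 known from the olfactory mucosa and its glands and sustentacular cells, read 3.74, 4.18 and 3.71 at E11.5 and 9.87, 9.89 and 9.85 at E14.5. Its rise of 5.99 ± 0.13 (SE, adjusted p = 2.62e-05) was the third largest among genes with a single symbol. The EPI went from 3.48 to 9.46 over the same time. Sult1e1, the oestrogen sulphotransferase gene, rose by 4.52 in the MES and was already at 8.59 in the EPI at E11.5. Sult1c1 rose by 4.09, Adh1 by 3.69, Cyp2f2 by 3.63 and Cbr2 by 3.51. Adh1, an alcohol dehydrogenase, was brighter on the MES arrays, at 9.01 to 9.06, than in the EPI at 8.47, while Cbr2 was brighter in the EPI, at 10.69. On the deposited scale the order of the fractions thus differed from gene to gene within the list. The array medians at E14.5 were 7.05 to 7.12 in the MES and 6.55 to 6.61 in the EPI. A gap between fractions of about that size, as in Adh1 and Cyp2g1, was not separated from this shift of scale. The same holds for the other levels compared between the fractions.

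Over all 686 rises, 284 (41.4%) had an EPI mean at E14.5 at or above that of the MES, compared with 33.2% of all genes. The epithelial, neuronal and detoxification lists held 55 of the rises. Among olfactory receptor genes, 63 of 717 (8.79%) were called higher and 11 (1.53%) lower, and among 82 vomeronasal receptor genes limma called 0 either way. Olfr15 read 4.61, 4.37 and 4.40 at E11.5 and 7.64, 7.78 and 7.72 at E14.5, with an EPI mean of 7.96. Members of this family share sequence, so that probes may not separate them. Whether these signals came from axons, from epithelium left on the dissected tissue or from the mesenchyme itself was not tested.

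**Figure D5:**
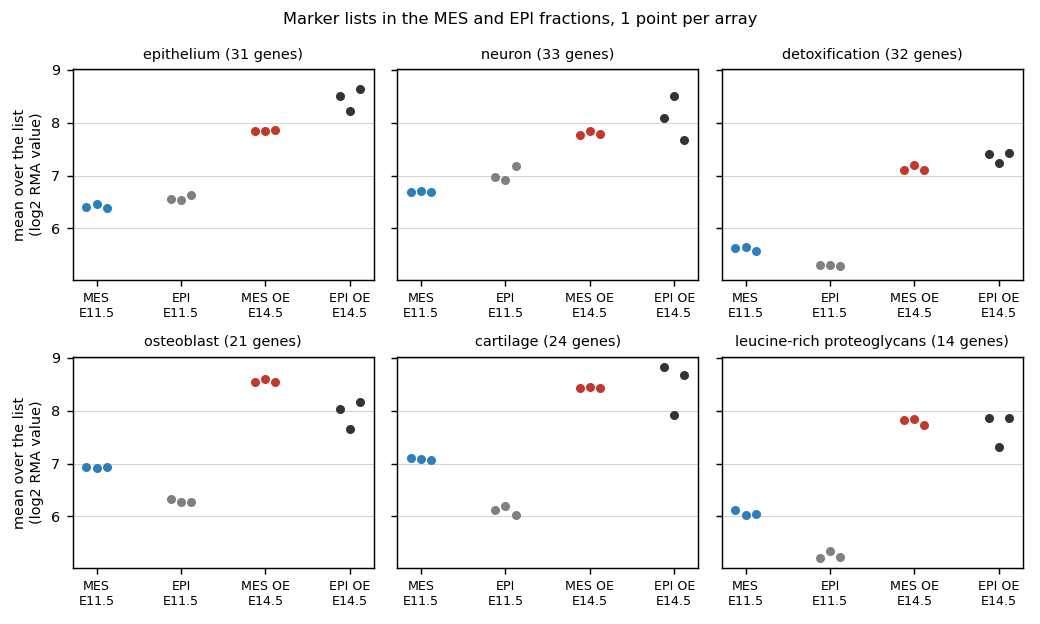
Mean log2 RMA level over the members of 6 gene lists on each array of the MES and EPI fractions at E11.5 and at E14.5 next to the OE, 1 point per array. Epithelial and neuronal lists rise in the MES from 6.39 to 6.47 and 6.68 to 6.71 up to 7.85 to 7.87 and 7.76 to 7.85, and the osteoblast and cartilage lists rise in the EPI as well.

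To ask whether the MES changed otherwise than the EPI over the same days, the change in the EPI was subtracted from that in the MES in a fit of 12 arrays. The 2 fractions did not share a baseline on this array, since the array medians were 6.41 to 6.44 in the EPI and 7.05 to 7.15 in the MES at E11.5, and 6.55 to 6.61 and 7.05 to 7.12 at E14.5. The median over all genes was -0.44, and it was -0.27 after each array was centred on its median. Against that shift, 163 genes (1.16%) were called higher in the MES than in the EPI and 2101 (15%) lower, and after quantile normalisation, with a median of -0.22, the counts were 350 and 808. Genes of the patterning group were among those with the lowest values under both scalings. Foxf1 differed by -3.53 and Tbx22 by -3.38, since their EPI means were level, at 7.23 and 7.26 for Foxf1 and 6.41 and 6.49 for Tbx22. Sult1e1 differed by 4.12 and Fstl5, a secreted follistatin-like protein, by 2.74, their EPI means having been high at E11.5, at 8.59 and 8.77. Ibsp, Aspn and Cyp2g1, the largest rises in the MES among genes with a single symbol, differed by 0.40, 0.22 and 0.02. None of these differences was called. In this fit 1 of 24 cartilage genes was called higher and 13 lower. The counts were 0 and 18 of 39 collagens, 0 and 10 of 20 elastic fibre genes, and 3 and 3 of 21 osteoblast genes. The share of osteoblast genes called lower was near the 15% over all genes. These list counts were made only on the deposited scale and not after centring or quantile normalisation. The median difference of MES from EPI over the cartilage list was 0.99 at E11.5 and 0.01 at E14.5. Over all genes it was 0.66 and 0.19.

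At E14.5 the MES next to the OE was also set against that next to the VNO, a comparison that used the same 3 MES OE arrays. It asked which transcripts differed between the 2 sites, and it called 105 genes (0.75%) higher next to the OE and 91 (0.65%) lower. Bone genes were among the differences. Of the 21 osteoblast genes, 9 were higher next to the OE and 1 lower, among them Ibsp, which averaged 7.53 next to the VNO and 10.68 next to the OE, a difference of 3.15 (adjusted p = 0.00195). Sp7 averaged 7.25 and Alpl 8.54 next to the VNO, with differences from the OE side of 1.90 and 1.5. The cartilage genes Cnmd and Acan differed by -0.56 and 0.07 and were not called.

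Several patterning factors that were lower next to the OE at E14.5 than in the placode MES at E11.5 were higher next to the VNO. Tbx22 averaged 7.95 there, Foxf1 8.41, Foxf2 8.12 and Tbx3 9.28, and the differences of OE from VNO were -3.06, -2.31, -1.52 and -1.34. Their differences from the placode MES of E11.5 to the OE side of E14.5 had been -3.30, -3.51, -1.59 and -1.46. Rspo2 and Flrt2 likewise stood at 8.93 and 11.69 next to the VNO. Pax9 was at 10.66 there against 9.09 to 9.19 next to the OE. Sim1 went the other way, at 5.97 next to the VNO and 9.12 to 9.15 next to the OE, a difference of 3.17 (adjusted p = 0.000438).

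Other genes that were not called with age differed between the sides. The paired box genes Pax3 and Pax7 and the WNT effector Lef1 were higher next to the OE by 1.63, 1.65 and 1.85, with Lef1 at 7.66 next to the VNO. The retinoic acid synthesising gene Aldh1a2 was lower next to the OE by 1.19 on the log2 scale. Among genes that had risen with age, the mast cell gene Cpa3 was at 5.77 next to the VNO, a difference of 2.51. Lipi and Abca8a, a lipase and a transporter, were higher next to the OE by 3.04 and 2.48. Bpifa1, Fezf2 and Slc25a21 gave differences of -2.63, -2.16 and -1.86. Leaving out any array but VNO replicate 2 took the 91 genes lower next to the OE to between 41 and 52, and Rank Products called 62 genes higher and 33 lower. With the replicate number as a block, limma called 0 genes either way, so that none of the OE against VNO calls given here held under that fit.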

How the data were processed

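RNA of the dissected tissues was hybridised to Affymetrix Mouse Exon 1.0 ST arrays. The deposited table holds log2 values that the authors made with RMA (version not given in the sources used here; build mm9 per the submitters' notes). It lists 23339 clusters, of which 23238 had values on the 24 time course columns used here; 6 columns of a Dlx5 mutant experiment were not used. Clusters with several symbols (989) or none (7310) were left out, and each of the 14807 genes was read on its brightest cluster. limma 3.58.1 in R 4.3.3 (lmFit, eBayes) was fitted to the arrays of each comparison, and p-values were adjusted by Benjamini and Hochberg's method over the whole table with a minimum log2 difference of 0.9. An exact two-sided permutation test of 3 against 3 arrays cannot go below p = 0.1, so single genes were not tested that way. E12.5 levels are a description. Members and gene lists (37) were chosen with earlier results of these data known. Named genes were the 15 largest called rises and falls of this comparison, up to 6 called members per list and direction with the genes that define a list, and the largest of the other comparisons; other genes in the text (such as Ifitm5, Phex, Dmp1, Matn3, Tnc, Nr2f1, Pdgfra, Prrx1 and Olfr15) were named after their values were seen. RefSeq promoter windows were used for sequence only, and no coordinate was converted between builds. The alternatives were quantile normalisation, centring on array medians, a filter on dim clusters, the mean of a gene's clusters, a trended prior, a fit over 24 arrays, a replicate block, no minimum difference, each array left out, and Rank Products with 100 permutations. Simulated data over 23238 clusters were drawn as independent normal values with few clusters changed. In them the test recovered 58% of changes of size 1 and 84% of size 2 for this comparison, with 6 false calls. Many more genes passed in the measured data, so these rates need not hold there. The precision rests on 3 arrays per group, and several genes of interest, such as Runx2 and Spp1, were not analysed here because no cluster carried their symbol alone.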

Additional observations from a re-analysis of the deposited data

Results flagged for a closer look

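The change in the MES differed from that in the EPI, by limma's test of the difference over 12 arrays, in 163 genes where it lay above and in 2101 where it lay below, and each of these counts depends on the scale of the fractions as described with that comparison. The 6 genes farthest above were Selenok (4.38), Sult1e1 (4.12), Dnajc17 (3.70), 2310067E19Rik (3.15), Rnf7 (3.09) and Phxr4 (2.86), all called under both scalings. In Selenok, Dnajc17, Rnf7, Phxr4 and 2310067E19Rik the EPI mean dropped by more than the MES mean moved. Dnajc17 spread widely at E14.5, with MES arrays at 4.56, 4.94 and 2.27. The 6 farthest below were Neurod6 (-4.13), a neuronal bHLH factor, Islr2 (-3.60), Foxf1 (-3.53), AY036118 (-3.45), Tbx22 (-3.38) and Dlx1 (-3.21), also called under both scalings. Neurod6 was at 3.72 to 3.78 and 2.93 to 3.09 in the MES while its EPI mean went from 2.79 to 6.20, and Dlx1 went from 5.45 to 7.85 in the EPI.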

How the results depend on the processing

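With 3 arrays per group the counts depend on where the thresholds lie. In the comparison of ages, Rank Products called 413 rises and 63 falls, clusters brighter than the median gave 301 rises, quantile normalisation 214 falls, and dropping the minimum difference 2535 rises and 5061 falls. Leaving out each array gave 671 to 708 rises and 327 to 382 falls. The difference from the EPI gave 350 genes above and 808 below after quantile normalisation, 1119 below after centring, and 441 above and 5898 below with no minimum, and 133 to 183 and 1908 to 2609 with an array left out. OE against VNO gave 62 and 33 by Rank Products, 52 and 31 among bright clusters, 399 and 565 with no minimum, and 72 to 95 and 41 to 104 with an array left out. Same-numbered arrays did not deviate together throughout. The correlations of their deviations were -0.106, -0.162 and -0.0388 between the ages, -0.0938, -0.177 and -0.0501 between OE and VNO, and from -0.0787 to 0.132 between MES and EPI. With the number as a replicate block the ages gave 679 rises and 350 falls, the difference from the EPI gave 162 and 2083, and OE against VNO gave 0 and 0 by limma, with a smallest adjusted p of 0.0649 and 2461 genes at an unadjusted p under 0.05 (3928 without the block). No named gene reversed among the alternatives run. Of 210 named genes called, 62 lost the call under at least 1 alternative, 61 of them under Rank Products and 16 under quantile normalisation. The filter on dim clusters kept 166 of the 263 named genes, all with the same result. Genes that it removed were not counted among the 62, although they lowered the 686 rises to 301. Besides those named with their result, Rank Products did not call Acvr2b, Aldh1a3, Bmp2, Cdh6, Cdkn1a, Col11a2, Col9a2, Crabp1, Cxcl12, Cxcl13, Cyp26b1, Dlk1, Dusp6, Efemp1, Efna2, Etv4, Fezf2, Fgf17, Foxj1, Has2, Hmga2, Id3, Igf2bp3, Isl2, Ltbp3, Mycn, Myog, Nbl1, Pax9, Six2, Smoc1, Twist1, Wnt8b and Wnt9b. Leaving out E14.5 replicate 1 ended the calls of Foxj1 (0.86), Has2 (-0.88), Cxcl12 (-0.89) and Omd (1.81), leaving out replicate 2 or 3 that of Wnt9b (-0.87 and -0.80), and leaving out replicate 3 those of Efemp1 (0.89) and Cxcl13 (-0.87). Leaving out E11.5 replicate 1 ended the call of Cxcl12 (-0.86). Leaving out replicate 2 of E14.5 or of E11.5 brought Top2a past the threshold (-0.91 and -0.93). Omd also lost its call under the block. The causes were not tested. The table holds no background measure, so how far a dim gene lies above background is not known here.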
